A study of Homo sapiens with 2 samples.

Results

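The T cell receptor loci TRA, TRD, TRB and TRG were examined for sites of UTX in untreated Jurkat cells, a long-established human line of T cell acute lymphoblastic leukaemia (T-ALL), and for sites of TAL1 listed beside them. The members were all peaks with at least 1 base in 3 windows of hg19, namely 22090000 to 23060000 on chromosome 14 for TRA and TRD, which share 1 locus, 141990000 to 142520000 on chromosome 7 for TRB, and 38270000 to 38420000 on chromosome 7 for TRG. The windows held 31 of the 17396 UTX peaks and 5 of the 2678 TAL1 peaks. Positions decided membership, and no measured value entered it. The study sequenced 1 chromatin immunoprecipitation (ChIP-seq) library made with a mixture of antibodies against UTX and 1 mock library made with an isotype IgG. The UTX library entered as its peak list, and the mock library was not analysed here. The TAL1 list was taken by the submitters from an earlier study, and in which cells those sites were mapped is not stated in the sources used here. Both lists give positions only, so the depth behind a peak is unknown, its width is the only measure of its size, and there are no replicates with which to test a difference.

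T cell receptors are pairs of alpha and beta or of gamma and delta chains. Each chain is encoded by arrays of variable (V), joining (J) and, in TRB and TRD, diversity (D) segments, mostly upstream of constant (C) genes. Recombination joins 1 segment of each kind during thymic development. Enhancers past the constant genes of TRA, TRB and TRG drive transcription and recombination of the alpha, beta and gamma genes. The TRA enhancer lies between the alpha constant gene and the unrelated gene DAD1. UTX (KDM6A) demethylates histone H3 at lysine 27 and is a subunit of the KMT2C and KMT2D methyltransferase complexes that act at enhancers. TAL1 pairs with E proteins to bind E-box sequences and is switched on aberrantly in part of T-ALL. Jurkat cells carry an alpha-beta receptor. The DNA between joined segments is in most cases lost from a rearranged allele. The peak lists hold no measure of how many copies of each segment these cells keep.

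Each locus was divided into parts by approximate hg19 boundaries taken from general knowledge of the loci and not from an annotation of this build. A peak was counted in the part that held its centre. Enhancer parts were drawn only past the constant genes of TRA, TRB and TRG, and none was drawn for TRD. The RefSeq gene table at hand follows GRCh38.p14 and served for names and order only. It lists 54 TRAV, 61 TRAJ, 67 TRBV, 14 TRBJ, 14 TRGV and 5 TRGJ entries, with 3 TRDV, 3 TRDD and 4 TRDJ. The constant genes are TRAC, TRDC, TRBC1, TRBC2, TRGC1 and TRGC2. Individual V or J segments at a peak are not named, because positions of this build were not used here.

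UTX sites were concentrated past the constant genes. The 3′ enhancer parts of the 3 windows made up 2.48% of their length (41 kb), yet held 9 of the 31 UTX peaks (29.0%) and 48.8% of all bases in those peaks. The variable parts, 83.0% of the length, held 20 UTX peaks and 45.3% of the bases. In the joining and constant parts, 187 kb in all, 1 UTX peak was found. This gave 219.5 UTX peaks per Mb in the 3′ parts, 14.6 in the variable parts and 5.35 in the joining and constant parts, beside 5.88 per Mb for the whole UTX list. UTX peaks covered 17.8% of the 3′ parts and 0.493% of the variable parts. The counts depend on the approximate boundaries: with all inner boundaries moved 5 kb up, the 3′ parts held 6 UTX peaks (146 per Mb, 30.7% of the bases) and the joining and constant parts 4 (21.4 per Mb, 21.6% of the bases). The 3′ parts are short and were drawn where enhancers are known, but with earlier results of these data known too. The densities are therefore a description, not independent of the peaks, and no test was made of them.

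**Figure D1:**
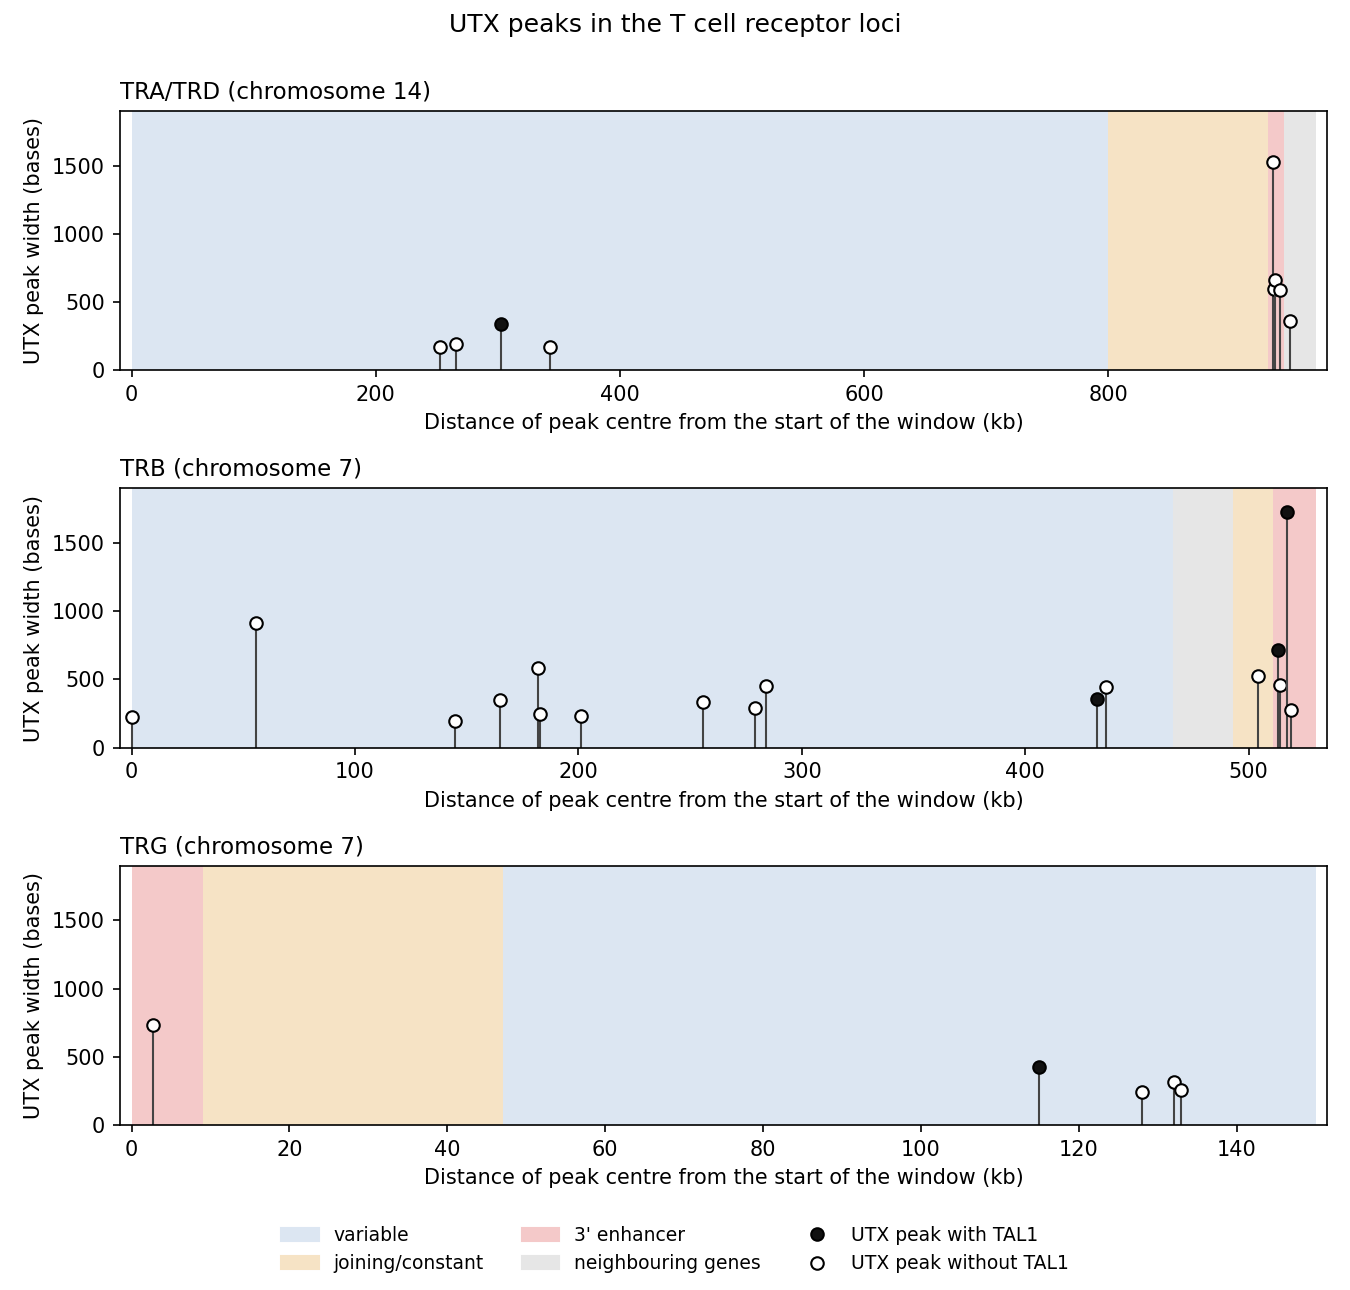
UTX peaks of the TRA/TRD, TRB and TRG windows, each drawn at the distance of its centre from the start of the window (kb, horizontal axis) with its width in bases as its height. Shading marks the approximate parts, and filled points are UTX peaks that overlap a TAL1 peak. The tallest peaks of TRA/TRD (1526 bases), TRB (1725 bases) and TRG (730 bases) all stand in the 3′ enhancer parts.

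The TRA 3′ part carried a tight row of 4 UTX peaks and no TAL1 peak. The part, about 23021000 to 23034000 on chromosome 14, begins past TRAC and ends at DAD1, a subunit gene of the oligosaccharyltransferase complex. In the RefSeq order the noncoding genes LINC02332 and LOC105370399 lie between TRAC and DAD1. The leading peak, at 23024416 to 23025941, was 1526 bases wide, and 99.4% of the UTX list was as narrow or narrower. Its centre lay 4.18 kb past the boundary set at the end of TRAC, in the stretch where the alpha enhancer is known to lie. Only 70 bases separated it from a peak of 599 bases at 23026012 to 23026610. A gap of 442 bases followed, and then a peak of 663 bases at 23027053 to 23027715. The row ended, after 2857 bases, with a peak of 587 bases at 23030573 to 23031159. All 4 were wider than the upper quartile of the UTX list, 457 bases, and together they filled 3375 bases of the part. With the inner boundaries moved 5 kb up, the leading peak fell in the alpha J and C part instead. The nearest TAL1 peak was 549 kb from this row.

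The part that holds DAD1 contained 1 UTX peak of 358 bases, at 23039132 to 23039489, 7.97 kb beyond the row and without TAL1. The next UTX peak past the window began 162 kb after its end. The centre of the DAD1 site lay 20.7 kb before the end of the window, on the side of the part that faces TRAC.

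The V, D, J and C segments of TRA and TRD, 931 kb in all, held 4 UTX peaks, or 4.30 per Mb, beside 6.74 per Mb on the rest of chromosome 14. They were unevenly spread. A stretch of 592 kb, from 22432717 to 23024415, held no UTX peak. It took in 61.0% of the window, including the V segments nearest to the J segments, the whole delta D, J and C part (50 kb) and the whole alpha J and C part (81 kb). Of the 17372 gaps between neighbouring UTX peaks in the genome, 6.18% were as long. The delta D, J and C segments of TRD had 0 UTX and 0 TAL1 peaks, and so did the alpha J segments and TRAC up to the boundary used. How much DNA of each locus these cells keep was not measured. An absent peak therefore cannot be told from absent DNA, and densities are per length of the reference. The first 253 kb of the window held none either.

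The 4 UTX peaks of the TRA variable part lay between 22343266 and 22432716 and were mostly narrow. They measured 171 bases at 22343266 to 22343436, 195 bases at 22355770 to 22355964, 339 bases at 22392829 to 22393167 and 170 bases at 22432547 to 22432716. Of these, 3 lay below the lower quartile of the UTX list (230 bases). The widest of the 4 held the single TAL1 peak of the window, which was 88 bases wide at 22392896 to 22392983 and was among the narrowest of its list, where 4.33% were as narrow or narrower.

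The TRB 3′ part carried 4 UTX peaks and 2 TAL1 peaks. This part, about 142501000 to 142520000 on chromosome 7, begins past TRBC2, and TRBV30, an inverted V segment, is the next receptor segment in the RefSeq order. The widest UTX peak of all 3 windows lay here, 1725 bases at 142506050 to 142507774, and 99.5% of the UTX list was as narrow or narrower. Its centre lay 5.91 kb past the boundary set at TRBC2, in the stretch where the beta enhancer is known to lie. It enclosed a TAL1 peak of 624 bases at 142506507 to 142507130, which ranked 2 by width among the 2678 TAL1 peaks. The centres of these peaks were 93.5 bases apart, and the TAL1 peak took up 36.2% of the UTX peak.

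Closer to TRBC2 lay a UTX peak of 716 bases at 142502263 to 142502978, which held a TAL1 peak of 269 bases at 142502441 to 142502709. That TAL1 peak was as wide as or wider than 93.9% of its list, and 3.80 kb separated it from the wide one. Between them was a UTX peak of 462 bases at 142503672 to 142504133 without TAL1, although a TAL1 peak lay 0.962 kb away. Beyond the wide peak, at 142508825 to 142509104, the last UTX peak of the row measured 280 bases and had no TAL1 either. The 4 UTX peaks filled 16.8% of the part.

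The single UTX peak in any joining and constant part was in TRB, 522 bases at 142494052 to 142494573, which 82.4% of the list did not exceed. It lay 7.69 kb before the first UTX peak of the 3′ part and held no TAL1. The trypsinogen genes, which sit between TRBV29-1 and TRBD1 in the RefSeq order and include PRSS1 and PRSS2, formed a part of 27 kb with 0 peaks of either list. It lay inside a stretch of 68.3 kb without UTX. When all inner boundaries were moved 5 kb up, the UTX count of the TRB joining and constant part became 3 and that of its 3′ part 2, so the peaks nearest to TRBC2 are assigned less firmly than the wide one.

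The TRG locus runs in the opposite direction along the chromosome, so its 3′ part, about 38270000 to 38279000, comes first. It held 1 UTX peak, 730 bases at 38272363 to 38273092, and 93.6% of the list was as narrow or narrower. The centre lay 6.27 kb past the boundary set at TRGC2, in the stretch known for the gamma enhancer. The nearest TAL1 peak lay 16.7 kb away, outside the window. From there a stretch of 111 kb held no UTX peak. By the boundaries used it contains TRGC1, TRGC2 and the J segments, a part of 38 kb. It also takes in much of the variable part, on the side nearest to the J segments.

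**Figure D2:**
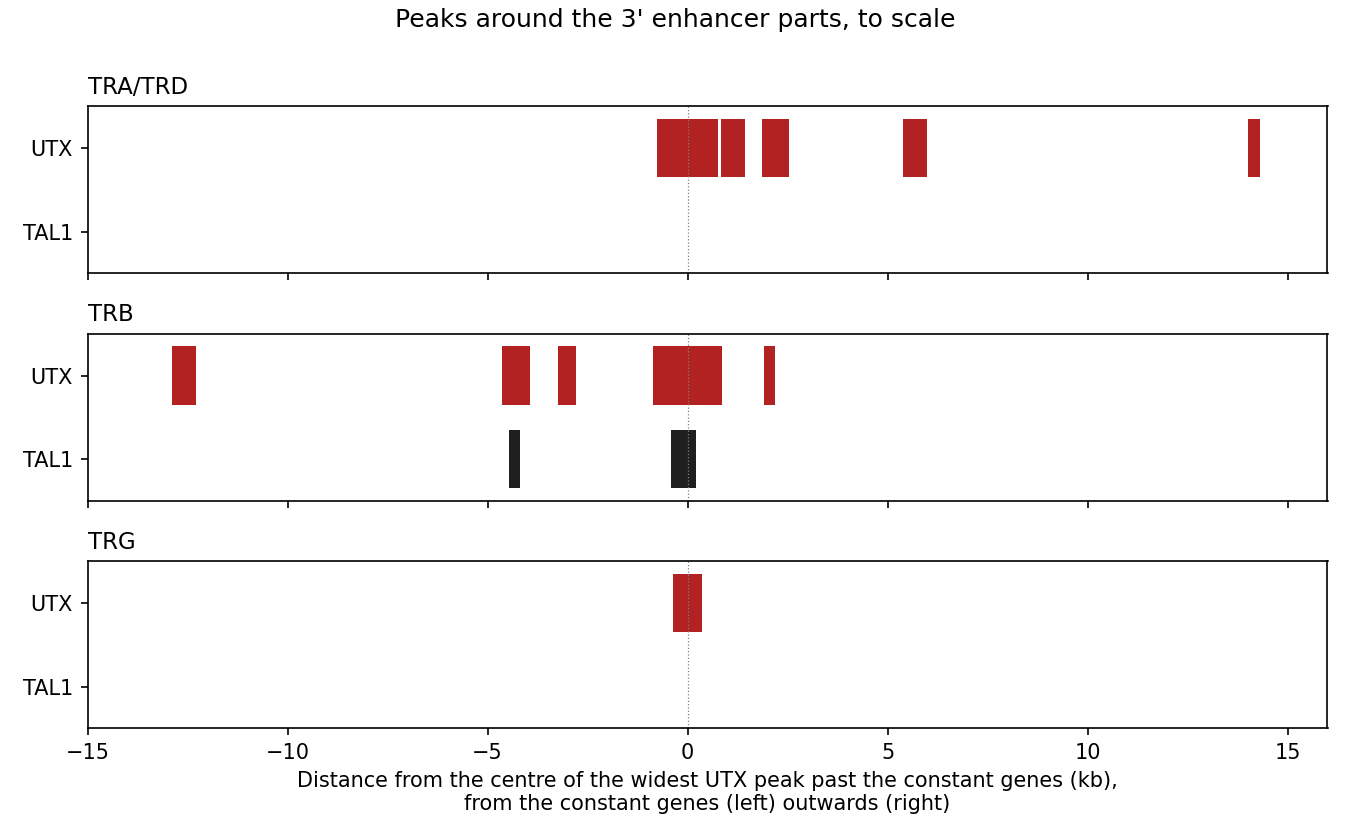
UTX peaks (red) and TAL1 peaks (black) of the windows around the 3′ enhancer parts of TRA/TRD, TRB and TRG, drawn to scale as kb from the centre of the widest UTX peak there, with the constant genes to the left. TRA/TRD shows 4 UTX peaks close together and 1 in DAD1 without TAL1, TRB shows TAL1 inside 2 of its UTX peaks, and TRG shows 1 UTX peak alone.

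The rows of 4 UTX peaks past TRAC and past TRBC2 were of like extent, at 6.74 and 6.84 kb with 3375 and 3183 bases in UTX peaks, but differed in order. The widest peak came first, nearest to TRAC, in the TRA row, and it followed 2 narrower peaks in the TRB row. TAL1 was present at 0 of the 4 TRA sites (exact interval 0 to 60.2%), at 2 of the 4 TRB sites (6.76 to 93.2%) and at 0 of the 1 TRG site. These 95% exact (Clopper-Pearson) binomial intervals, here and below, cover counting error only and treat peaks as independent. The peaks of a row are close neighbours from 1 library, so the intervals do not compare the loci. Over the whole UTX list 12.1% of peaks held TAL1, a share within the TRA and TRB intervals. The lists show TAL1 at the TRB enhancer stretch and none at the TRA or TRG stretch. Counts this small cannot be told from the share of the whole list, and no test was made that the loci differ.

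The variable parts held scattered and mostly narrower sites. In TRB, 12 UTX peaks were spread over 466 kb, or 25.8 per Mb, with widths from 196 to 915 bases and a median of 341. The widest of them, 915 bases at 142045216 to 142046130, had no TAL1 within 376 kb, and 97.1% of the UTX list was as narrow or narrower. A pair 0.890 kb apart, of 586 and 245 bases, lay at 142171874 to 142173594. Peaks of 288 and 454 bases, 4.05 kb apart, lay at 142269232 to 142274028. A further pair, of 357 and 447 bases, lay at 142422195 to 142425724, and its first peak enclosed a TAL1 peak of 237 bases at 142422262 to 142422498. Their centres were 7 bases apart, the closest match of the 5 TAL1 sites. Between 142274029 and 142422194 the V array held no UTX peak for 148 kb. The first member of TRB, at 141989991 to 141990218, crossed the start of the window, and the next UTX peak outside lay 299 kb before it.

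In TRG, 4 UTX peaks of 242 to 429 bases lay in the 103 kb variable part, all between 38384334 and 38403280. The widest, 429 bases at 38384334 to 38384762, enclosed a TAL1 peak of 110 bases at 38384529 to 38384638, with the centres 35.5 bases apart. The other 3, of 242, 315 and 259 bases, lay within 5.43 kb from 38397846 to 38403280 and had no TAL1. The density of the TRG variable part was 38.8 UTX peaks per Mb, against 5 per Mb in the TRA variable part.

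Every TAL1 peak of the loci lay wholly inside a UTX peak. By an overlap of at least 1 base, 5 of 5 TAL1 peaks were shared (100%, exact interval 47.8 to 100%). By the same rule 80.8% of the whole TAL1 list was shared, which lies within the interval. Containment was not counted over the whole list. Seen from UTX, 5 of 31 peaks held TAL1 (16.1%, interval 5.45 to 33.7%), beside 12.1% of the whole UTX list. Neither share can be told from its background at these counts. The 5 UTX peaks with TAL1 measured 339, 357, 429, 716 and 1725 bases, while the 26 without ranged from 170 to 1526 bases with a median of 341. The groups overlapped over most of their range.

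By width, 19 of the 31 UTX peaks exceeded the median of the UTX list (320 bases), beside 49.8% of the list, and 2 exceeded 1 kb, beside 2.15%. Their median was 357 bases (quartiles 252 and 586). Within the loci the 3′ parts stood higher, with a median of 663 bases and 8 of 9 peaks above the list's median. The variable parts had a median of 302 bases and 9 of 20 above it. The 280-base peak of TRB was the 1 narrow peak of the 3′ parts, and the TRB variable peaks of 915 and 586 bases reached into the range of the other 8 peaks, 462 to 1725 bases. Width can change with depth and peak-calling settings, which are unknown for both lists.

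**Figure D3:**
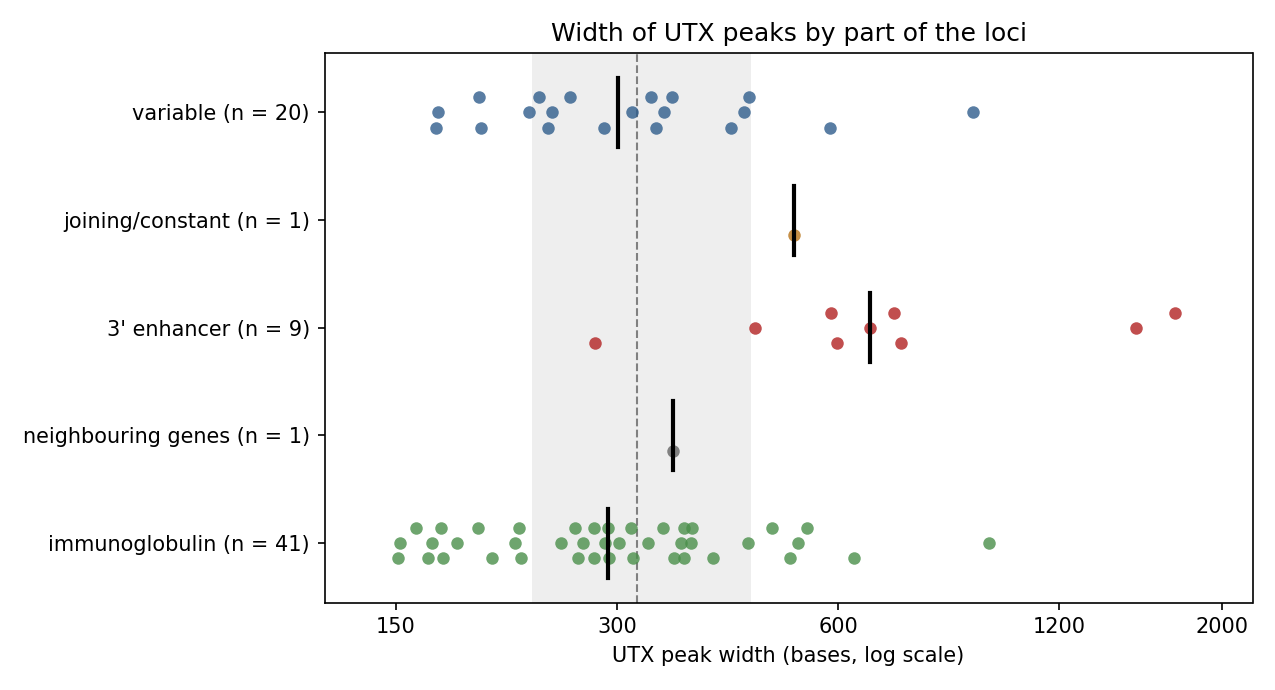
Width of each UTX peak (bases, log axis) by part of the T cell receptor loci, and for the immunoglobulin loci. Each point is 1 peak, black bars are medians, the dashed line is the median of the whole UTX list (320 bases) and the grey band its quartiles (230 to 457 bases). The 3′ enhancer peaks, with a median of 663 bases, lie mostly to the right of the band, and the variable peaks, with a median of 302 bases, spread across it.

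Neighbouring UTX peaks with a gap of at most 10 kb were treated as 1 group. The 31 peaks formed 18 groups, of which 12 were single peaks and 2 held 5 peaks. The TRA group ran for 15.1 kb from 23024416 to 23039489, through the 3′ part into DAD1, and the TRB group for 15.1 kb from 142494052 to 142509104, from the joining and constant part through the 3′ part. UTX peaks covered 24.8% of the first and 24.6% of the second. Groups of 5 or more thus took 10 of the 31 peaks (32.3%), beside 4.94% of the whole UTX list. This share rests on 2 groups only. Each reached 5 through 1 outlying peak, at a gap of 7.97 kb in TRA and 7.69 kb in TRB. The cuts of 10 kb and 5 peaks were not varied, and a join below these gaps would leave neither group at 5. Of these groups, the TRB one held 2 TAL1 peaks and the TRA one 0.

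Per Mb, the 3 windows together held 18.8 UTX and 3.03 TAL1 peaks, beside 5.88 and 0.905 over the span of the whole lists. TRG (33.3 UTX peaks per Mb) and TRB (32.1) were denser than TRA/TRD (9.28). The rest of chromosome 7 held 5.34 UTX peaks per Mb and the rest of chromosome 14 held 6.74. For TAL1 the order was TRG (6.67 per Mb, from 1 peak), TRB (5.66, from 3) and TRA/TRD (1.03, from 1).

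The immunoglobulin loci, which encode the antigen receptors of B cells in a like arrangement of V, J and C segments, served for comparison in rounded hg19 windows. These ran from 106030000 to 107290000 on chromosome 14 for IGH, from 89150000 to 90280000 on chromosome 2 for IGK and from 22380000 to 23270000 on chromosome 22 for IGL. They held 41 UTX peaks in 3.28 Mb (12.5 per Mb) and 9 TAL1 peaks (2.74 per Mb). TAL1 was found at 7 of these 41 UTX peaks (17.1%, interval 7.15 to 32.1%), beside 16.1% in the T cell receptor loci. None of the 41 exceeded 1 kb, against 2 of 31, and their median width was 292 bases against 357. Most lay in IGH, with 27 UTX and 7 TAL1 peaks, and fewest in IGK, with 3 and 0. A density above that of the whole list was therefore also seen at IGH (21.4 UTX peaks per Mb) and IGL (12.4), while the count of peaks over 1 kb rests on 2 T cell receptor peaks and on a cut that the widest immunoglobulin peak, 963 bases in IGH and with TAL1, narrowly missed. These differences carry no test.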

How the data were processed

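The UTX list came from 1 library of Jurkat cells. BWA 0.6.2, SAMtools 0.1.18, MACS2 2.0.10 and hg19 are named in the submitters' processing notes without role or order. Thresholds, filters, the use of the mock and how reads matching several V segments were treated are not stated in these sources. The other deposited list, of TAL1 sites from an earlier study per the series' design text, has no stated build and was taken as hg19. Each deposited list holds 3 columns (chromosome, start counted from 0, end) and was used whole; printed positions count from 1.

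Peaks were taken by position, and TAL1 and UTX peaks with at least 1 base in common counted as shared (Python 3.11.15, numpy 2.4.6, scipy 1.17.1, pandas 2.3.3; the overlap was checked with bedtools 2.31.1 and tested on simulated data). Densities of windows and parts use their own lengths. Those of the whole lists and of the rest of a chromosome use the span between the first and last peak of each chromosome. No test was run, because each protein has 1 list. The named sites are all peaks outside the variable parts and, within these, peaks with TAL1 and the 3 widest, with others given as examples chosen after their values were seen. The loci, parts and comparison windows were chosen with earlier results of these data known. No peak sequence is printed, because an hg19 genome was not used.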

Additional observations from a re-analysis of the deposited data

How the results depend on the processing

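Of 66 values recomputed under other settings, 59 stayed within 1.5 times the reported count, density or median or within the interval of the share. Moving the inner boundaries 5 kb up gave 1 UTX peak in the alpha J and C part (reported 0), 3 in the TRB joining and constant part (reported 1), 2 in the TRB 3′ part (reported 4) and, over all loci, 4 in the joining and constant parts (reported 1). That move also took the UTX count of the 3′ parts from 9 to 6, at the edge of the 1.5 limit and counted as within it. The share of UTX bases in these parts fell from 48.8% to 30.7% and was not among the 66 values. Moving the inner boundaries 5 kb down gave 2 UTX peaks in the DAD1 part (reported 1). Some of the 59 values are counts of parts that stayed at 0 peaks. With the wider 50% of the UTX list 19 UTX peaks remained, and with the wider 50% of the TAL1 list 3 TAL1 peaks; both filters keep fewer peaks by construction. The share of UTX peaks with TAL1 ranged from 9.68% with the wider 50% of TAL1 to 26.3% with the wider 50% of UTX. All TAL1 peaks counted overlapped UTX under each setting tried, but most settings could not change this. They took a subset of the same peaks or applied a rule that these already met, so they add little to the 59 values. Only the windows 50 kb wider brought in another TAL1 peak, which also overlapped UTX (6 of 6). No paired analysis was possible because the UTX and mock groups hold 1 sample apiece. With no score or read count, a stricter enrichment threshold could not be tried, and an absent peak may lie below an unknown detection limit.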

Other observations

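Within 50 kb of the 3 windows, 300 kb in all, 1 further UTX peak was found (3.33 per Mb, beside 5.88 for the whole list), of 183 bases at 38255449 to 38255631 on chromosome 7, which lay 14.4 kb before the TRG window and held a TAL1 peak. On the far side of TRG the next UTX peak lay 1186 kb away. The nearest TAL1 peaks outside the TRB window lay 1207 kb before it and 1695 kb after it, in a list with 0.905 peaks per Mb. For TRA/TRD the nearest TAL1 peaks outside lay 1144 kb before and 520.3 kb after the window.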
